A study of Danio rerio with 24 samples.

Results

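The genes described here encode the core scaffold of the excitatory postsynaptic density and its closest partners: shank1, shank3a, shank3b, dlg4a, dlg4b, homer1b, nlgn1 and nlgn2a. They were chosen by symbol, with earlier results of these data known. The 8 symbols led to 9 of the 32105 gene rows counted in each library. Matching the Ensembl IDs to symbols, ignoring case, gave 5 rows under the zebrafish symbol: shank1 (ENSDARG00000060539), shank3b (ENSDARG00000063054), dlg4b (ENSDARG00000095809), NLGN1 (ENSDARG00000077710) and nlgn2a (ENSDARG00000077329). Of these, NLGN1 is written in capitals and matched only because case was ignored. The other 4 rows carry only the capital symbol of their ortholog, without the last letter of the requested symbol: SHANK3 (ENSDARG00000063332) stands in for shank3a, HOMER1 (ENSDARG00000101759) for homer1b, and the pair DLG4 ENSDARG00000039385 and DLG4 ENSDARG00000041926 for dlg4a. Which of the DLG4 pair is dlg4a, and whether the other capital rows are exactly the requested paralogs, was not settled by the tables used, so these rows keep their capital names.

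The postsynaptic density is a layered protein mesh under the membrane of glutamatergic synapses. DLG4, known as the PSD-95 protein in mammals, lies next to the membrane and holds glutamate receptors and neuroligins through its PDZ domains, and SHANK proteins lie deeper and bind HOMER, which in turn binds metabotropic glutamate receptors. Neuroligins are adhesion proteins that reach across the cleft to presynaptic neurexins; in mammals NLGN1 is mainly found at excitatory and NLGN2 at inhibitory synapses.

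Zebrafish embryos were exposed to the solvent DMSO or to the polychlorinated biphenyl PCB126, a dioxin-like agonist of the aryl hydrocarbon receptor, and were then raised in clean water. Total RNA was sequenced from embryos at 48 hours post-fertilization (48 hpf; DMSO and 0.3 nM), larvae at 5 days post-fertilization (5 dpf; DMSO, 0.3 nM and 1.2 nM) and brains of adults 4 months old (DMSO, 0.3 nM and 1.2 nM). Each of the 8 groups had 3 libraries, which the submitters call biological replicates, giving 24 in all. The sources used here do not give the strain, the sex of the adults or the number of animals behind a library. All fish, controls included, received an embryonic treatment in the same medium, and the adult brains were taken long after exposure had ended. Embryo and larval RNA was extracted with one kit and brain RNA by another method.

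The libraries held 12480715 to 23022236 reads assigned to genes. Each brain DMSO library (19498374 to 23022236 reads) was deeper than each exposed brain library (13097392 to 18043641 reads). Levels are given below as CPM, read counts scaled to a common library size within an age, and as they are not divided by transcript length they are compared between groups and not between genes. Differences are log2 fold changes ± standard error from edgeR's quasi-likelihood test, and a gene is said to have risen or fallen where the Benjamini-Hochberg adjusted p over all genes tested at that age was under 0.05. In bulk RNA, fewer cells of a type and less RNA per cell cannot be told apart.

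In adult brain, most of these genes were higher in fish that had met PCB126 as embryos. At 0.3 nM, 5 of the 8 members tested rose and 0 fell: shank1, SHANK3, shank3b, nlgn2a and DLG4 ENSDARG00000039385. At 1.2 nM, 6 of 8 rose and 0 fell: the same list except that DLG4 ENSDARG00000039385 missed the threshold while DLG4 ENSDARG00000041926 and NLGN1 passed it. Over all genes tested in brain, 7.82% rose and 5.9% fell at 0.3 nM, and 5.69% rose and 3.36% fell at 1.2 nM. Among the rows matched by the zebrafish symbol ignoring case, 3 of 4 tested rose at 0.3 nM and 4 of 4 at 1.2 nM. The row that did not rise at 0.3 nM was NLGN1, which is written in capitals. The median log2 fold change of the members was 0.46 at 0.3 nM and 0.42 at 1.2 nM, against -0.02 and -0.03 over all 19548 genes tested. Both comparisons use the same DMSO libraries, so neither is a replication of the other. The ninth member, dlg4b, had too few reads in brain to be tested.

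**Figure D1:**
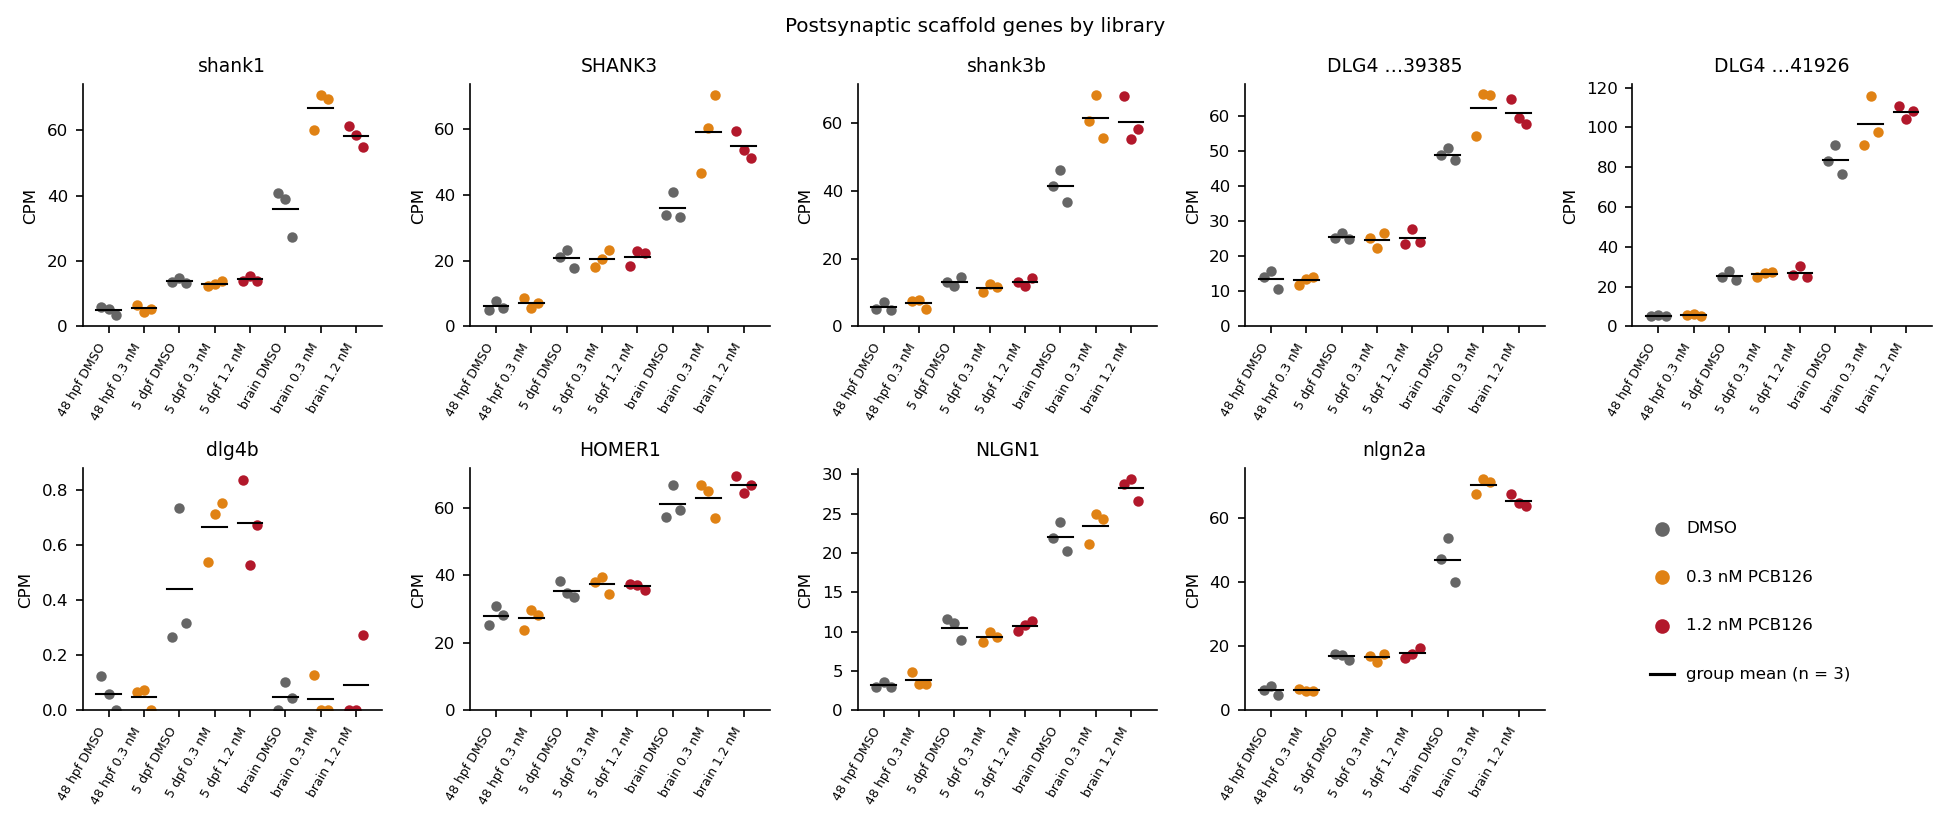
Level of each of the 9 gene rows in CPM (library-scaled read counts, vertical axis from 0, scaled per panel) in every library of the 8 groups (horizontal axis), with bars at the group means. In brain, the 0.3 nM and 1.2 nM points of shank1, SHANK3, shank3b and nlgn2a all lie above the 3 DMSO points; HOMER1 overlaps between groups, and dlg4b stays below 1 CPM in every library.

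Among the members, shank1 had the largest difference from DMSO at both doses. Brain shank1, which encodes a neuron-enriched SHANK, stood at 40.9, 39.0 and 27.4 CPM in DMSO replicates 1, 2 and 3, at 60.1, 70.6 and 69.5 CPM after 0.3 nM, and at 61.2, 58.6 and 54.9 CPM after 1.2 nM. Each exposed brain was above each DMSO brain, and DMSO replicate 3 was the lowest of all. The difference from DMSO was 0.90 ± 0.13 at 0.3 nM (1.86-fold, adjusted p = 0.0067) and 0.70 ± 0.13 at 1.2 nM (1.63-fold, adjusted p = 0.0213).

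SHANK3 is the family member whose loss underlies Phelan-McDermid syndrome in humans, and zebrafish keep a pair of copies of it. The SHANK3 row had 34.0, 40.9 and 33.2 CPM in DMSO brains, 46.6, 60.4 and 70.3 CPM after 0.3 nM and 59.4, 53.8 and 51.1 CPM after 1.2 nM. Its groups did not overlap with DMSO at either dose, although the 0.3 nM libraries were widely spread (59.1 ± 11.9 CPM, SD, n = 3). Its differences were 0.71 ± 0.14 (adjusted p = 0.0129) and 0.61 ± 0.14 (adjusted p = 0.0318). The paralog shank3b went from 41.5, 46.1 and 36.7 CPM in DMSO brains to 60.7, 68.2 and 55.7 CPM after 0.3 nM and 67.9, 55.2 and 58.1 CPM after 1.2 nM, again with no overlap. Its differences were 0.57 ± 0.11 (1.48-fold, adjusted p = 0.0116) and 0.54 ± 0.11 (1.46-fold, adjusted p = 0.0245).

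The DLG4 rows had smaller differences, and each passed the test at one dose. DLG4 ENSDARG00000039385 had 48.8, 50.8 and 47.4 CPM in DMSO brains, 54.2, 66.2 and 66.0 CPM after 0.3 nM and 64.9, 59.5 and 57.8 CPM after 1.2 nM. All exposed brains were above the DMSO brains, with a difference of 0.34 ± 0.09 that passed at 0.3 nM (adjusted p = 0.0305) and one of 0.31 ± 0.09 that did not at 1.2 nM (adjusted p = 0.0521). DLG4 ENSDARG00000041926 had 82.9, 91.1 and 76.6 CPM in DMSO brains, 91.0, 116 and 97.5 CPM after 0.3 nM and 111, 104 and 108 CPM after 1.2 nM. Here 0.3 nM replicate 1 fell just inside the DMSO range, and the difference was 0.28 ± 0.10 at 0.3 nM (adjusted p = 0.0793) and 0.37 ± 0.10 at 1.2 nM (adjusted p = 0.0415). For neither row do these p-values show that the doses differ.

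HOMER1 was the member with the smallest difference at both doses. Its levels were 57.3, 66.7 and 59.5 CPM in DMSO brains, 66.9, 65.1 and 56.9 CPM after 0.3 nM and 69.4, 64.4 and 66.7 CPM after 1.2 nM. The 3 groups overlapped, and the differences were 0.04 ± 0.08 (adjusted p = 0.781) and 0.13 ± 0.08 (adjusted p = 0.349).

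Of the neuroligins, nlgn2a passed the test at both doses and NLGN1 only at 1.2 nM. Brain nlgn2a stood at 47.3, 53.7 and 39.9 CPM in DMSO libraries, at 67.5, 72.0 and 71.2 CPM after 0.3 nM and at 67.5, 64.6 and 63.8 CPM after 1.2 nM. Exposed libraries were tightly grouped and all above DMSO, with differences of 0.58 ± 0.10 (1.5-fold, adjusted p = 0.00797) and 0.48 ± 0.10 (1.39-fold, adjusted p = 0.0246). NLGN1 had 21.9, 23.9 and 20.3 CPM in DMSO brains, 21.1, 25.0 and 24.3 CPM after 0.3 nM and 28.8, 29.4 and 26.6 CPM after 1.2 nM. Its 0.3 nM and DMSO libraries overlapped (0.09 ± 0.10, adjusted p = 0.581), while its 1.2 nM libraries were above both other groups (0.36 ± 0.10 against DMSO, adjusted p = 0.0421).

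In all, 5 of the 8 tested members had 0.3 nM brains that all lay above the DMSO brains, and 7 of 8 had such 1.2 nM brains. The share of all genes tested with that pattern was 16.3% at 0.3 nM and 18.6% at 1.2 nM.

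The row under the symbol dlg4b was barely read in brain, where the DLG4 rows had at least 978 and 1628 reads in each DMSO library. Whether the dlg4b row is a copy of the PSD-95 gene was not settled by the tables used. It had 0, 2 and 1 reads in the DMSO libraries, 2, 0 and 0 reads after 0.3 nM and 0, 0 and 4 reads after 1.2 nM. At these depths no fold is given, and a difference between the groups was not detectable.

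Setting the doses against each other in brain, 0 of the 8 tested members passed the test in edgeR or DESeq2, and 1 had an unadjusted p under 0.05, as did 9.64% of all genes. The differences of 1.2 nM from 0.3 nM ran from -0.19 ± 0.13 for shank1 to 0.27 ± 0.10 for NLGN1 (adjusted p = 0.421). NLGN1 was also the 1 member whose 1.2 nM libraries all lay above its 0.3 nM libraries, as did 8.87% of all genes tested. Of all genes tested, 0.0972% passed this comparison, and a p above the threshold does not show that the doses act alike.

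The brain calls rest on 3 libraries a group, and some hinge on single libraries. At 0.3 nM, leaving out each brain library in turn left 4 to 6 members called, and shank1, SHANK3, shank3b and nlgn2a remained called in each of the 14 alternative analyses, while DLG4 ENSDARG00000039385 remained in 8. At 1.2 nM the same exercise left 0 to 6: 0 members were called without any one of the 1.2 nM libraries, 1 without DMSO replicate 1 and 2 without DMSO replicate 3. The calls over all genes then fell from 1769 to between 13 and 44 without a 1.2 nM library and to 462 and 530 without those DMSO libraries, while the members' median difference stayed between 0.34 and 0.51.

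**Figure D2:**
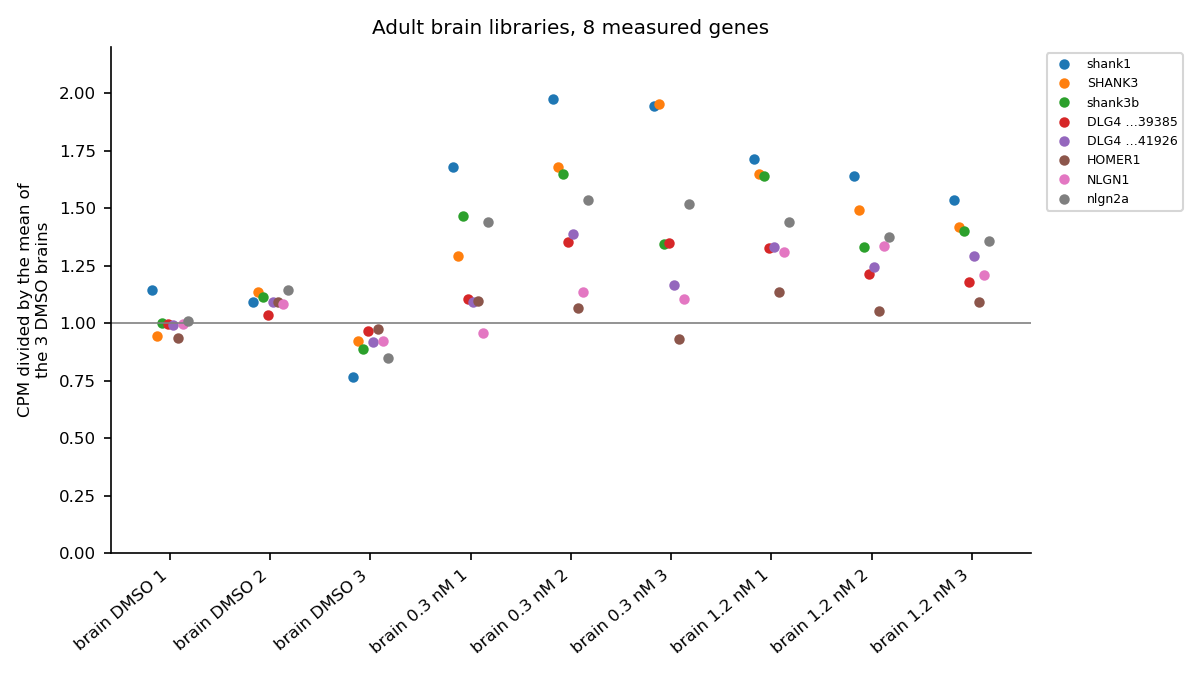
Level of the 8 measured genes in each of the 9 brain libraries, divided by the mean CPM of the 3 DMSO brains (vertical axis, ratio; horizontal axis, library; 1 point a gene; line at 1). The median ratio is 0.919 in DMSO replicate 3, 0.995 and 1.09 in the other DMSO libraries, and 1.2 to 1.46 in the 6 exposed libraries.

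The members tended to be high or low together within a library, which among the DMSO brains was not particular to them. Among DMSO brains, the summed general neuron markers were also lowest in replicate 3 (12196 CPM) and highest in replicate 2 (14374 CPM). So were other postsynaptic density genes (4624 and 5543 CPM) and other synaptic adhesion genes (3315 and 4153 CPM). The share of all genes in that order was not counted. DMSO replicate 3 was the lowest DMSO library for 7 of 8 members and DMSO replicate 2 the highest for 7, while 0.3 nM replicate 2 was the highest of its group for 6 and 1.2 nM replicate 1 for 7. Other postsynaptic density genes also had their highest sums in these exposed libraries (6516 and 6404 CPM), but the neuron markers did not. Their sum was 13978 CPM in 0.3 nM replicate 2, below the 14203 CPM of replicate 3. In 1.2 nM replicate 1 it was the lowest of its group (14759 CPM, against 15568 and 15512 CPM). The ratio to the DMSO mean ranged in DMSO replicate 3 from 0.767 for shank1 to 0.973 for HOMER1, and in 0.3 nM replicate 2 from 1.06 for HOMER1 to 1.97 for shank1.

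The brain libraries also differed in what else they held, DMSO replicate 3 above all in markers of muscle and of meninges and skeleton. The summed level of the skeletal muscle markers was 1086 CPM in that library, 145 and 85.8 CPM in the other DMSO brains and 20.2 to 91.9 CPM in the exposed brains. The meningeal and skeletal markers summed to 2625 CPM there, to 604 and 352 CPM in the other DMSO brains and to 162 to 363 CPM in exposed brains. Without that library, shank1 still rose at 0.3 nM (0.74, adjusted p = 0.00406), as did nlgn2a (0.48, adjusted p = 0.00863), shank3b (0.49, adjusted p = 0.0283) and SHANK3 (0.66, adjusted p = 0.0441). DLG4 ENSDARG00000039385 did not (0.32, adjusted p = 0.0782). At 1.2 nM and without it, shank1 (0.54, adjusted p = 0.0208) and nlgn2a (0.37, adjusted p = 0.0369) passed. The calls of shank3b (adjusted p = 0.054), SHANK3 (0.0971), DLG4 ENSDARG00000041926 (0.11) and NLGN1 (0.123) were then lost. DMSO replicate 2, the highest DMSO library for most members, had 191 CPM of summed retina markers, against 25.5 and 29.6 CPM in the other DMSO brains and 21.2 to 68.4 CPM in exposed brains. Without it, 5 members were called at 0.3 nM and 6 at 1.2 nM, where 14.4% and 11.4% of all genes were called in either direction. With all libraries those shares were 13.7% and 9.05%. Of 8 erythroid markers tested, 4 fell and 0 rose at 0.3 nM (median -0.79), where 5.9% of all genes fell. Their median at 1.2 nM was -0.37. Their sums were 235 to 416 CPM in DMSO brains, 172 to 222 CPM after 0.3 nM and 169.7 to 287 CPM after 1.2 nM.

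Markers of other brain cells moved with exposure as well. Of 31 general neuron markers, 5 rose and 3 fell at 0.3 nM (median 0.00), and 5 rose and 0 fell at 1.2 nM (median 0.23). The shares of all genes in brain were 7.82% higher and 5.9% lower at 0.3 nM, and 5.69% and 3.36% at 1.2 nM. Markers that rose at both doses included ELAVL3 (0.55 and 0.44), an RNA-binding protein of neurons, and map2 (0.64 and 0.67) and maptb (0.32 and 0.33), which encode microtubule-associated proteins of dendrites and axons. The 3 that fell at 0.3 nM were thy1, a surface protein of neurons in mammals (-1.36, then -1.05 at 1.2 nM, adjusted p = 0.0297 and 0.0749), UCHL1, a ubiquitin hydrolase (-0.34 and -0.14, adjusted p = 0.0164 and 0.265), and atp1a3b, a sodium pump subunit (-0.39 and 0.23, adjusted p = 0.0401 and 0.205). The SNAP25 rows, which encode a part of the vesicle release machinery, had -0.18 and -0.22 at 0.3 nM and -0.07 and -0.04 at 1.2 nM, none past the threshold. The summed neuron markers were 12196 to 14374 CPM in DMSO brains, 12779 to 14203 CPM after 0.3 nM and 14759 to 15568 CPM after 1.2 nM; no neuron marker was at 0 in any group. Per 100 CPM of neuron markers the members summed to 2.68, 2.87 and 2.8 CPM in the DMSO libraries. After 0.3 nM they summed to 3.66, 3.89 and 3.6 CPM, and after 1.2 nM to 3.59, 3.15 and 3.14 CPM. Each exposed brain was above each DMSO brain on this scale. The share of other genes with that pattern was not counted, and the part of neuron content in the difference was not tested.

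Glial markers tended to be lower, where 5.9% of all genes fell at 0.3 nM and 3.36% at 1.2 nM. Of the 19 radial glia and astrocyte markers tested, 7 fell and 0 rose at each dose (medians -0.43 and -0.35), among them SLC1A3 (-0.71 and -0.58), a glial glutamate transporter, and GJA1 (-0.72 and -0.34), an astroglial connexin. Of 16 oligodendrocyte markers, 4 fell at 0.3 nM and 1 at 1.2 nM, the latter near the share of all genes (medians -0.36 and -0.21). Among them mbpa, a myelin basic protein gene, had -0.84 and -0.66. Of 18 microglia and macrophage markers, 5 and 6 fell (medians -0.39 and -0.64), with csf1ra, the receptor for colony stimulating factor, at -0.50 and -0.57. The summed radial glia markers were 8512 to 9418 CPM in DMSO brains and 6797 to 7442 CPM in exposed brains, and the summed microglia markers 679.9 to 936 CPM and 456 to 651 CPM; no marker of these lists was at 0 in a brain group. The oligodendrocyte sums overlapped between DMSO (11605 to 17428 CPM) and exposed brains (8444 to 11874 CPM). The part of cell makeup and of tissue left on the dissected brain in the members' difference was not tested, beyond the values without single DMSO libraries above. After thinning all brain libraries to the same total, the members' medians were 0.46 at 0.3 nM and 0.43 at 1.2 nM, and 5 members were called at each dose, where 12.8% and 8.45% of all genes were called in either direction.

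**Figure D3:**
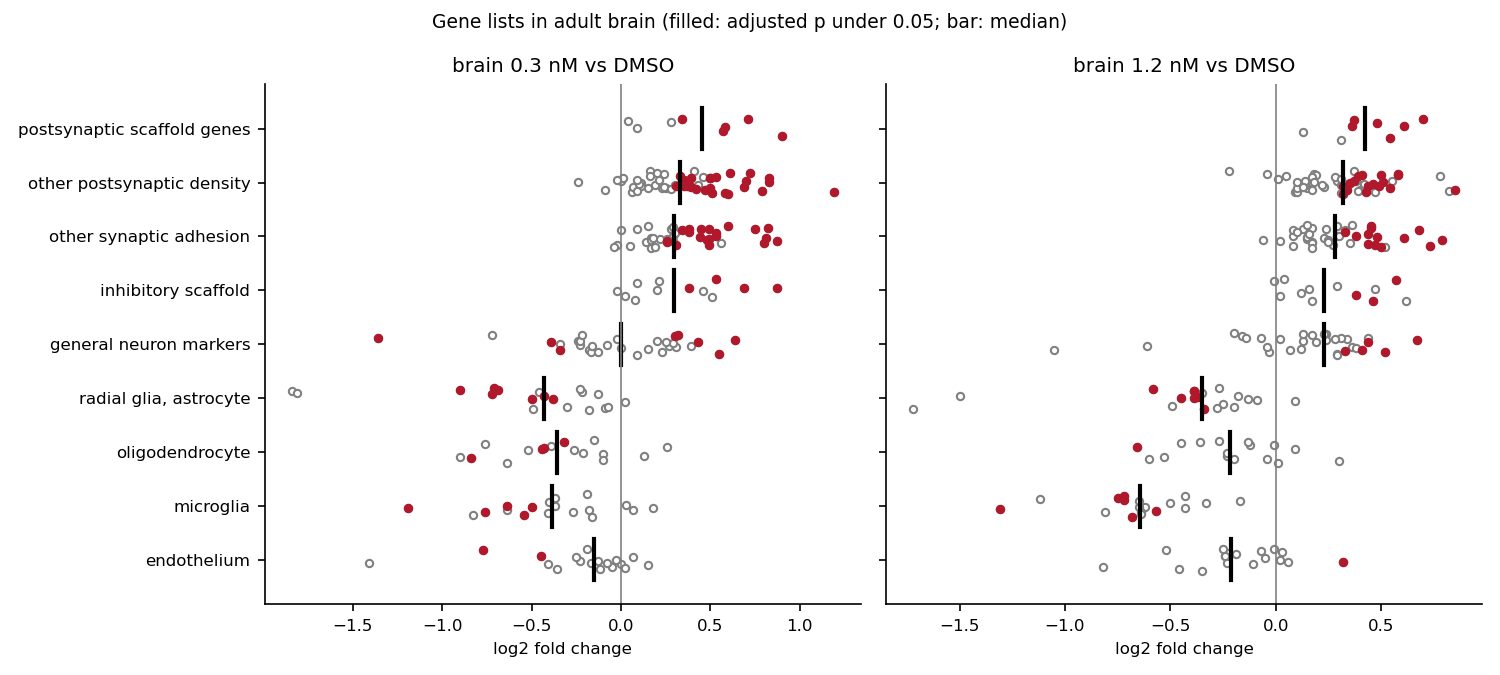
Log2 fold change of each tested gene against DMSO in brain (horizontal axis) for the postsynaptic scaffold genes, related synaptic lists and cell type markers (rows), at 0.3 nM (left) and 1.2 nM (right); filled points passed the adjusted p of 0.05 and bars are list medians. The medians of the postsynaptic scaffold genes, 0.46 and 0.42, lie right of 0, and those of the radial glia, oligodendrocyte and microglia markers lie left of 0 at both doses.

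The rest of the pathway was read from lists of related genes. Over all genes tested in brain, 7.82% were higher at 0.3 nM and 5.69% at 1.2 nM. Of 51 other scaffold and signalling genes of the excitatory postsynaptic density, 24 rose and 0 fell at 0.3 nM (median 0.33), and 17 rose and 0 fell at 1.2 nM (median 0.32). The DLGAP proteins link DLG4 to SHANK, and dlgap2b went from 18.5 ± 2.09 CPM in DMSO brains to 33.0 ± 3.92 CPM after 0.3 nM and 27.8 ± 3.89 CPM after 1.2 nM (SD, n = 3 each), with differences of 0.83 ± 0.13 (adjusted p = 0.0067) and 0.58 ± 0.13 (adjusted p = 0.0285). DLGAP2 ENSDARG00000076070, a low row, went from 2.15 ± 0.721 to 4.91 ± 0.668 CPM at 0.3 nM (1.19 ± 0.27, adjusted p = 0.019), and DLGAP2 ENSDARG00000059340 from 33.6 ± 4.94 to 48.7 ± 5.51 CPM at 1.2 nM (0.54 ± 0.12, adjusted p = 0.0286). The IQSEC proteins are exchange factors for Arf GTPases that bind DLG4 in mammals: IQSEC2 ENSDARG00000102125 went from 35.2 ± 7.83 CPM to 62.5 ± 4.28 and 63.2 ± 13.4 CPM (0.83 and 0.85, adjusted p = 0.0224 and 0.0314). IQSEC2 ENSDARG00000077709 rose at 0.3 nM (0.79 ± 0.22, adjusted p = 0.0482) and IQSEC1 ENSDARG00000073822 at 1.2 nM (0.58 ± 0.14, adjusted p = 0.0341).

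Among the adhesion partners, 20 of 40 other neuroligin, neurexin and further trans-synaptic genes rose at 0.3 nM and 13 of 40 at 1.2 nM, with 0 lower at either dose (medians 0.30 and 0.28). The neuroligin nlgn4xb went from 18.7 ± 6.07 CPM to 34.2 ± 2.81 and 32.3 ± 2.02 CPM (0.87 ± 0.21 and 0.79 ± 0.21, adjusted p = 0.028 and 0.0468). The neurexin nrxn2b, a presynaptic partner of neuroligins, went from 35.3 ± 9.54 CPM to 62.5 ± 6.3 and 56.6 ± 3.93 CPM (0.82 and 0.68, adjusted p = 0.0197 and 0.0456). LRRTM4, a postsynaptic leucine-rich adhesion protein, went from 21.6 ± 2.35 CPM to 37.7 ± 3.83 and 32.9 ± 2.23 CPM (0.81 and 0.61, adjusted p = 0.00498 and 0.0182). The receptor phosphatase gene ptprsa rose at 0.3 nM (0.80 ± 0.19, adjusted p = 0.0293), and LRRC4B, another leucine-rich adhesion protein, at 1.2 nM (0.73 ± 0.14, adjusted p = 0.0222). In each of these genes the exposed libraries lay above the DMSO libraries at the doses given. That pattern held for 16.3% of all genes tested at 0.3 nM and 18.6% at 1.2 nM. These genes were named for their large called changes, so the lack of overlap adds no support.

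The scaffold genes of inhibitory synapses gave 4 of 12 higher at 0.3 nM and 3 of 12 at 1.2 nM, with 0 lower (medians 0.30 and 0.23). They were IQSEC3, an Arf exchange factor of inhibitory synapses (0.87 ± 0.15, adjusted p = 0.00967, at 0.3 nM), and, at both doses, shisa7b, an auxiliary protein of GABA receptors in mammals (0.69 and 0.57), MDGA1, which binds neuroligin and limits its pairing with neurexin (0.53 and 0.46), and iqsec3a (0.38 at both). Of these, iqsec3a went from 124 ± 9.98 CPM in DMSO brains to 161 ± 7.11 and 160.4 ± 6.65 CPM (adjusted p = 0.0137 and 0.0254).

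In whole embryos and larvae, no difference of a member from DMSO passed the test. At 48 hpf, 0 of the 8 tested members passed at 0.3 nM with edgeR or DESeq2, where 0.00987% of all genes passed in edgeR. An unadjusted p under 0.05 was found for 0 members and for 2.59% of all genes. The differences ran from -0.04 to 0.28 with a median of 0.11, and the largest was NLGN1 (0.28 ± 0.21), whose libraries had 2.93, 3.66 and 2.98 CPM in DMSO and 4.90, 3.38 and 3.37 CPM after 0.3 nM. The groups overlapped for all 8 tested members, while 3.84% of all genes had 0.3 nM libraries all above DMSO and 3.62% all below. At 5 dpf, 0 of the 9 members passed at 0.3 nM (0.0% of all genes) or at 1.2 nM (0.046% of all genes), with medians of -0.03 and 0.05. DESeq2 also called 0. An unadjusted p under 0.05 was found for 0 members, and for 4.76% of all genes at 0.3 nM and 6.78% at 1.2 nM. With so few members, a count of 0 is near those shares. The 5 dpf groups overlapped with DMSO for all 9 members at both doses. Of all genes tested, 5.45% had 0.3 nM larvae all above DMSO and 5.51% all below, and the shares at 1.2 nM were 6.17% and 6.1%.

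The 5 dpf values of the genes that rose in brain were close between groups. Larval shank1 had 13.5, 14.9 and 13.3 CPM with DMSO, 12.4, 13.1 and 13.9 CPM after 0.3 nM and 13.9, 15.4 and 14 CPM after 1.2 nM (differences -0.08 ± 0.10 and 0.06 ± 0.10). Larval nlgn2a had 17.6, 17.4 and 15.7 CPM, then 17.1, 15.2 and 17.5 CPM, then 16.4, 17.5 and 19.4 CPM in the same order (-0.03 ± 0.10 and 0.07 ± 0.10). The lowest difference among larvae was that of shank3b at 0.3 nM (-0.21 ± 0.11), with 10.3, 12.5 and 11.5 CPM against 13, 11.9 and 14.6 CPM in DMSO. The highest were those of dlg4b, on 4 to 14 reads a library. They were 0.6 ± 0.43 at 0.3 nM (adjusted p = 0.997) and 0.62 ± 0.42 at 1.2 nM (adjusted p = 0.82). Between the larval doses 0 of 9 members passed with edgeR (0.023% of all genes did) or DESeq2, the median difference of 1.2 nM from 0.3 nM being 0.04. Here 0 members and 4.57% of all genes had an unadjusted p under 0.05.

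**Figure D4:**
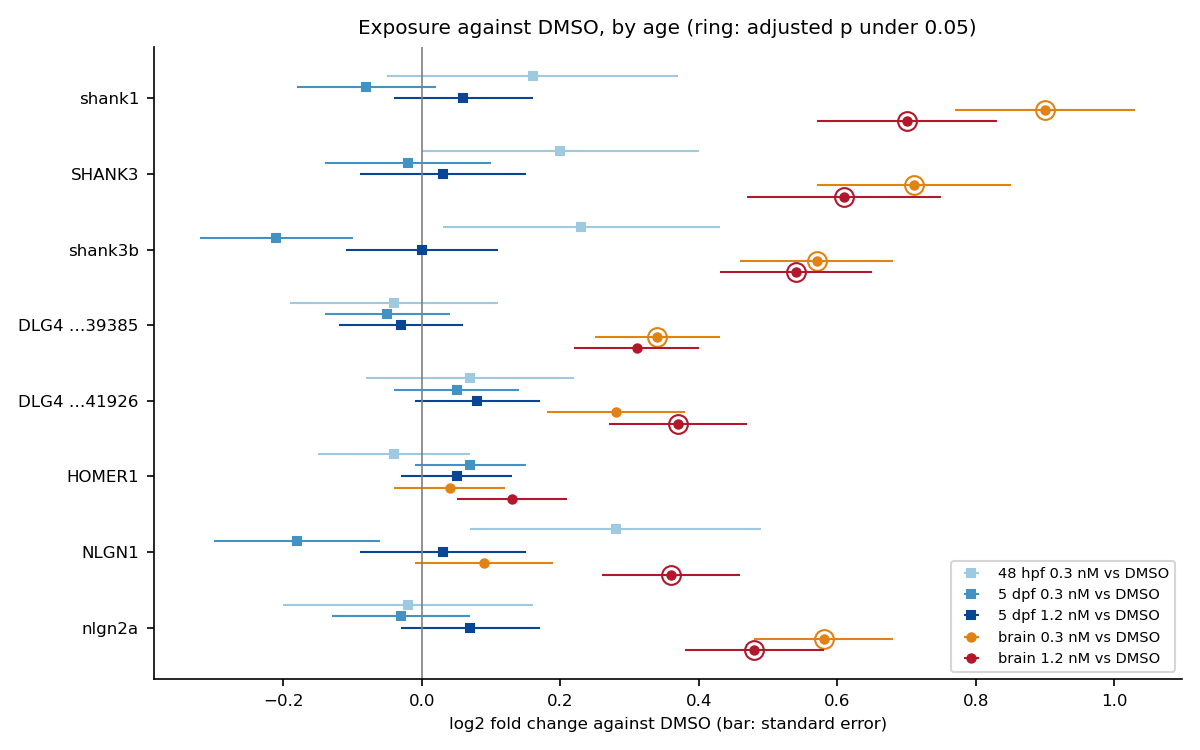
Log2 fold change against DMSO (horizontal axis; bars are standard errors) of the 8 measured genes in embryos and larvae (squares) and in adult brain (circles), with rings around differences of adjusted p under 0.05. All rings are on brain points, from 0.34 to 0.90, and the larval points lie between -0.21 and 0.08. The low row dlg4b is not drawn.

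Whether the effect of exposure differed between ages was tested as a difference of differences over all 24 libraries. The 0.3 nM effect was higher in brain than at 5 dpf for 3 of 9 members, where 2.69% of all genes tested were higher: shank1 by 0.96 ± 0.19 (adjusted p = 0.0071), shank3b by 0.76 ± 0.20 (0.0247) and nlgn2a by 0.59 ± 0.16 (0.0299). SHANK3 had a difference of 0.71 ± 0.22 that missed the threshold (adjusted p = 0.0614). HOMER1 had -0.05 ± 0.13. The 9 members here and in the other age contrasts include dlg4b, whose reads in embryos and brain were too few for such a comparison. Leaving out single libraries left 1 to 4 members called, with 1 left without 5 dpf DMSO replicate 1, 5 dpf 0.3 nM replicate 1, brain DMSO replicate 3 or brain 0.3 nM replicate 2. Calls over all genes in either direction then ran from 540 to 2135, against 1288 with all libraries.

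For the other age contrasts no member passed. The 0.3 nM effect in brain against 48 hpf gave 0 of 9 (1.79% of all genes passed in either direction) and 3 at an unadjusted p under 0.05 (17.5% of all genes); shank1 had 0.72 ± 0.22 (adjusted p = 0.0863) and nlgn2a 0.58 ± 0.18 (adjusted p = 0.0882). DESeq2 called 2 members in that contrast (3.88% of all genes), as did the fit without 48 hpf DMSO replicate 3 (2.16%), and 1 was called without brain DMSO replicate 2 (4.28%). The 1.2 nM effect in brain against 5 dpf gave 0 of 9 (1.49% of all genes passed) and 5 at an unadjusted p under 0.05 (19.5% of all genes), with shank1 at 0.63 ± 0.19 (adjusted p = 0.0833). DESeq2 called 1 member there (4.71% of all genes), and so did the fit without brain DMSO replicate 2 (4.88%). The 0.3 nM effect at 5 dpf against 48 hpf gave 0 of 9 members, also with DESeq2, and 0.0% of all genes, with 1 member at an unadjusted p under 0.05 (3.64% of all genes). Between brain and the whole animals, tissue, age and RNA extraction differ together and cannot be told apart.

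In fish given DMSO alone, the members were higher at each later stage, except dlg4b in brain. From 48 hpf to 5 dpf, 9 of 9 were higher (32.3% of all genes were), with a median difference of 1.38 over the 8 members other than dlg4b. Apart from dlg4b, the steepest was DLG4 ENSDARG00000041926, which went from 5.44 ± 0.496 to 25.4 ± 2.09 CPM (SD, n = 3 each; 2.15 ± 0.11, adjusted p = 8.9e-14). SHANK3 had 1.68, NLGN1 1.65, shank1 1.41, nlgn2a 1.36, shank3b 1.11 and DLG4 ENSDARG00000039385 0.85. HOMER1 changed least, from 28.1 ± 2.78 to 35.5 ± 2.48 CPM (0.27 ± 0.09, adjusted p = 0.015), and its call was lost without 48 hpf DMSO replicate 1 (adjusted p = 0.1) or 5 dpf DMSO replicate 1 (0.0903). For dlg4b there were 2, 1 and 0 reads at 48 hpf and 4, 10 and 4 reads at 5 dpf in DMSO fish, and 10 to 14 reads in each exposed 5 dpf library. The exposed larval libraries were also deeper, with 15564323 to 20662041 reads in all against 12480715 to 14932821 in DMSO larvae. The call of dlg4b was lost without 48 hpf DMSO replicate 3 (adjusted p = 0.0524) or 5 dpf DMSO replicate 2 (0.0973), while the calls of the 7 members other than dlg4b and HOMER1 held in all 11 alternative analyses.

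DMSO brain stood above DMSO larvae for the 8 members other than dlg4b (39.9% of all genes were higher), with differences from 0.84 ± 0.09 for HOMER1 to 1.77 ± 0.10 for DLG4 ENSDARG00000041926 and a median of 1.27. The member dlg4b was lower, with 0 to 2 reads in DMSO brains against 4 to 10 reads in DMSO larvae (adjusted p = 0.00472; 37.5% of all genes were lower). As larvae were sequenced whole and adults as brain, this is a comparison of tissues as much as of ages. The mean of shank1 was 4.98 ± 1.19 CPM at 48 hpf, 13.9 ± 0.879 CPM at 5 dpf and 35.8 ± 7.29 CPM in brain under DMSO, against 66.7 ± 5.79 and 58.3 ± 3.15 CPM in the exposed brains. For every member but dlg4b, all brain libraries were above all larval libraries and all larval libraries above all embryo libraries. Between DMSO groups, 35.4% of all genes had larvae all above embryos and 40.8% had brains all above larvae.

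The order from brain through larva to embryo was thus shared by the members that rose, while the order of groups within an age was not. For shank1, SHANK3, shank3b and nlgn2a the mean ran from brain 0.3 nM through brain 1.2 nM and brain DMSO down to the 5 dpf and then the 48 hpf groups. The exposed brains of DLG4 ENSDARG00000039385 came in the same order, and for NLGN1, HOMER1 and DLG4 ENSDARG00000041926 brain 1.2 nM came first. The neighbours brain 0.3 nM and brain 1.2 nM overlapped for each member but NLGN1, and the 3 larval groups overlapped with each other for every member except that 1.2 nM larvae lay above 0.3 nM larvae for shank1, by less than the rounding of the values above, and for NLGN1. That pattern held for 5.0% of all genes tested, and neither gene passed the test.

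The ratio of reads between paralogs differed between ages, a description chosen after the values had been seen and given without a test. Within a library, the DLG4 row ENSDARG00000041926 gave 0.376 to 0.465 reads per read of DLG4 ENSDARG00000039385 in DMSO embryos, 0.949 to 1.04 in larvae and 1.62 to 1.79 in brains. The SHANK3 copies followed another course, and shank3b gave 0.865 to 1.02 reads per SHANK3 read in DMSO embryos, 0.509 to 0.821 in larvae and 1.11 to 1.22 in brains. This order was less clear with exposure, as the 0.3 nM embryos gave 0.725 to 1.41, overlapping with both DMSO larvae and DMSO brains. In exposed brains the ratio of the DLG4 rows was 1.48 to 1.75 after 0.3 nM and 1.71 to 1.87 after 1.2 nM, overlapping with DMSO, as did the ratio of shank3b to SHANK3 at 0.791 to 1.3 and 1.03 to 1.14. The sources used here do not say how reads that match both copies of a pair were counted, so the split between paralogs carries that uncertainty.

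**Figure D5:**
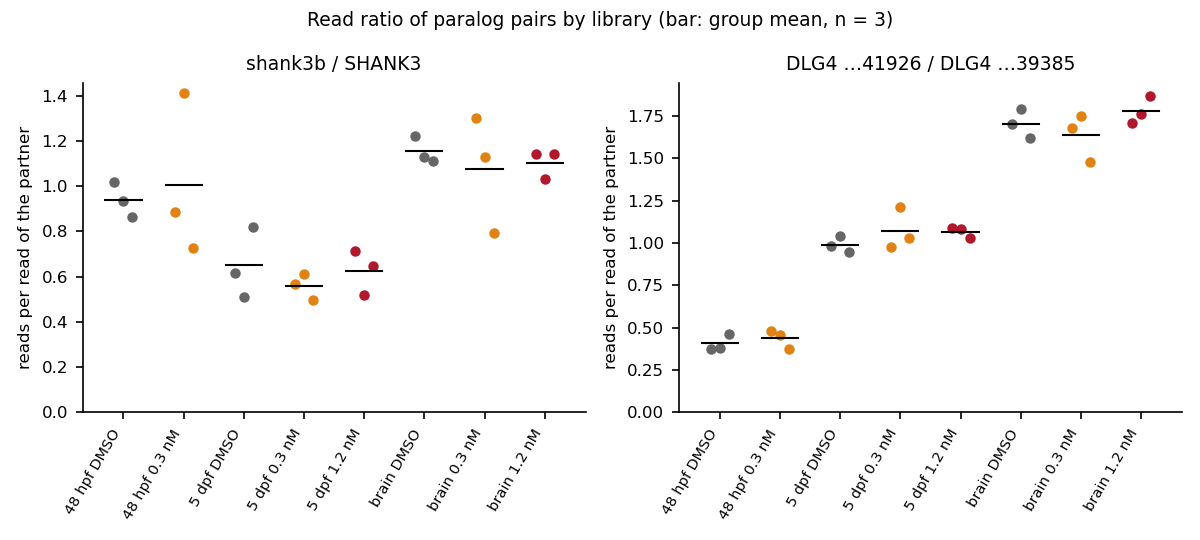
Reads of one paralog per read of its partner (vertical axis from 0, ratio) in every library of the 8 groups (horizontal axis), with bars at group means. The DLG4 ratio lies below 0.5 at 48 hpf and above 1.4 in brain, and the group means of the shank3b to SHANK3 ratio are lowest at 5 dpf.

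Genes with the most similar profile over the 24 libraries were found by the mean absolute difference of log2 CPM, each gene centred on its own mean, among 15387 candidates. For shank1 the closest were SRCIN1 (0.108 log2 units), SGIP1 (0.11) and PCLO (0.115), the latter a scaffold of the presynaptic active zone. For nlgn2a they were cntnap2a and STXBP5L (0.103 each) and CHD3 (0.106), and for shank3b UNC13A (0.128), a vesicle priming factor, SGIP1 (0.131) and DMXL2 (0.131). For SHANK3 they were SNTG1 (0.12), FAM135B (0.134) and NRXN3 (0.142), a neurexin, and for NLGN1 SLC45A4 (0.093), FRMPD4 (0.114) and ATXN1 (0.116). For the DLG4 row ENSDARG00000041926 they were SGSM1 (0.105), LRRC7 (0.106), which encodes the postsynaptic protein densin, and GPR158 (0.114), and for DLG4 ENSDARG00000039385 SGSM2 (0.089), ZNF804A (0.091) and B4GALNT4 (0.096). The profile of HOMER1 was closest to foxo3a (0.083), MARK3 (0.09) and ppp3cca (0.091). The nearest to dlg4b were SAT1 (0.384), GLDC (0.388) and SLC22A18 (0.404). With 0 to 14 reads of dlg4b in a library, its profile is too poorly measured for this likeness to be read. The 24 points behind each distance share the steps between embryo, larva and brain.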

How the data were processed

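Total RNA of 24 zebrafish libraries in 8 groups was sequenced. The deposited values are raw read counts per Ensembl gene, made by the authors with FastQC, STAR and HTSeq on GRCz10, per the submitters' processing notes, which also name edgeR. The sources used here do not give versions, the annotation release or the handling of multiply matching reads. The counts sum to 12480715 to 23022236 reads per library and are stranded, per the labels. Each file listed only genes, so no summary lines had to be removed. Symbols were looked up in a table that paired 26269 IDs with a symbol and left 5836 without; members were matched by zebrafish symbol ignoring case (5 rows) or by the ortholog's capital symbol (4 rows).

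Genes passing filterByExpr were tested with TMM scaling and robust quasi-likelihood fits in edgeR 4.0.16 (R 4.3.3, limma 3.58.1), 1 fit per age: 20265 genes at 48 hpf, 21719 at 5 dpf and 19548 in brain. A fit of all 24 libraries (22545 genes) served the comparisons between ages. Biological coefficients of variation were 0.119, 0.0817, 0.156 and 0.12. P-values set a difference of group means against the spread between libraries within groups, estimated over all groups of a fit. Alternatives were DESeq2 1.42.0, its size factors, no count filter, no robust fitting, each replicate left out, the replicate number as a block, other sets of libraries in the fit, and thinning to equal depth. A sign change of an uncalled value was not counted as a reversal. Same-numbered 48 hpf libraries deviated together (correlations 0.288 to 0.396), though the labels do not say what a number marks. At other ages not every pair passed 0.1. Under the block 0 members were called at 48 hpf, and 0.133% of all genes, against 0.00987% in the main fit. The share of all genes with an unadjusted p under 0.05 was then 7.28%, against 2.59%. Like profiles used a prior count of 2 and genes of mean log2 CPM of at least 1. Figures were drawn with matplotlib 3.10.9.

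The members, lists and tests were chosen with earlier results of these data known. Every member described is named; of each pathway list, the 4 called genes of largest change per direction and brain comparison; and 3 genes of like profile per member. Marker genes are named where a result turns on them. Some genes are not reported here. Gene lengths and coordinates were not used here.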

Additional observations from a re-analysis of the deposited data

Results flagged for a closer look

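The effect of 0.3 nM PCB126 was higher in adult brain than in 5 dpf larvae for 3 of 9 members, by a test of the difference itself over all 24 libraries. Of all genes tested, 2.69% were higher in this test. The difference of the log2 fold changes, brain minus larva, was 0.96 for shank1, 0.76 for shank3b and 0.59 for nlgn2a. Of 17 alternative analyses, the call held in 17 for shank1, 12 for shank3b and 10 for nlgn2a. For each of these genes the 3 brains at 0.3 nM lay above the 3 DMSO brains, as for 16.3% of all genes tested in brain. The 0.3 nM and DMSO larvae overlapped. The genes were picked by a test on the same values, so these patterns add no support. Tissue, age and RNA extraction differ between these samples as well.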

How the results depend on the processing

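No called direction reversed in any alternative. Members called in brain at 0.3 nM stayed at 4 to 6 throughout. At 1.2 nM the replicate block gave 3 in place of 6, where calls over all genes went from 9.05% to 5.25%. Leaving out single libraries gave 0 to 6 members, with 13 to 2263 calls over all genes. The 0.3 nM effect in brain against 5 dpf gave 1 to 4 without single libraries (3 with all), with 540 to 2135 calls over all genes. The 0.3 nM effect in brain against 48 hpf gave 2 with DESeq2 and 0 to 2 without single libraries; the 1.2 nM effect in brain against 5 dpf gave 1 with DESeq2, 1 with the replicate block and 0 to 1 without single libraries (0 in both with all). Without single libraries, calls over all genes ran from 97 to 976 for the 0.3 nM effect in brain against 48 hpf. They ran from 63 to 1112 for the 1.2 nM effect in brain against 5 dpf. The cause of these shifts was not tested, beyond the smaller groups. The block gave 4 at 0.3 nM in brain (10.3% of all genes, against 13.7% in the main fit). It gave 8 for 5 dpf against 48 hpf (52.0% of all genes, against 63.7%), and changed no other count of member calls. Only at 48 hpf did every same-numbered pair of libraries pass a correlation of 0.1. Over all genes, a single fit of all libraries turned the brain split from 1529 higher and 1154 lower to 1865 and 2255 at 0.3 nM, and from 1112 and 657 to 1705 and 1730 at 1.2 nM, with 6 and 7 members called. Calls over all genes at 0.3 nM ran from 960 to 3057 without single libraries. Reads of dlg4b are too few in embryos and brain for any comparison of exposure.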
